A study of Mus musculus with 21 samples.

Results

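The genes described here are the constant region genes of the mouse antibody heavy chain (*Ighm*, *Ighd*, *Ighg3*, *Ighg1*, *Ighg2b*, *Ighg2c*, *Ighe* and *Igha*), the constant gene of the kappa light chain (*Igkc*) and the joining chain gene (*Jchain*). They were taken by gene name from the deposited count table, where 10 of 53801 genes carried these names, and all 10 passed the filter on low counts, which 20256 genes passed. Bulk RNA-seq was analysed for IgA+ plasma cells (PCs) sort-purified as CD138+ IgA+ cells from the small intestinal lamina propria of 21 C57BL/6 mice, with 1 mouse for each library. Control mice were Mb1Cre-/- x Arntlfl/fl littermates (6 at ZT0 and 6 at ZT12), and knockout mice were Mb1Cre+/- x Arntlfl/fl (4 at ZT0 and 5 at ZT12). Zeitgeber time (ZT) counts hours from lights on. All mice of both genotypes carried the floxed *Arntl* alleles, and *Arntl* encodes the clock protein Bmal1. Cre was driven from the Mb1 locus, which is *Cd79a*, so that deletion began in the B cell lineage and not in PCs alone. The knockout mice therefore also differed from controls in carrying the Cre insertion in *Cd79a*. Genotypes follow the sample titles: in 8 of 9 knockout samples the separate genotype field gave that of the controls. Ages and sexes are not given in the labels.

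An antibody pairs 2 heavy chains with 2 light chains, and the constant region of the heavy chain sets its class. A B cell starts with the gene for IgM and can switch once or more to a gene further along the same locus, deleting the DNA between, so that it can switch forward along the locus but not back. In the gut wall most PCs make IgA, and here IgA+ cells were selected by the sort, so that the high level of *Igha* is no finding. J chain is a small protein that links IgA into dimers and IgM into pentamers, and it is needed for their transport across the epithelium by the polymeric immunoglobulin receptor. Each class can be made as a secreted or a membrane form from the same gene, and these forms are not told apart in counts per gene.

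The 8 heavy chain constant genes lie on chromosome 12 (GRCm38, minus strand) in the order in which they are listed above. *Igha* is the last and begins 162.5 kb after the start of *Ighm*. *Igkc* lies on chromosome 6 (70726435 to 70726966, plus strand) as a single exon, and *Jchain*, which is outside the antibody loci, lies on chromosome 5 (88519809 to 88527891, minus strand). Because reads are assigned to these genes by sequence, the starts of the constant regions are shown for the genes that the counts turn on. Each line gives the leading 60 bases of the first constant exon in the GENCODE M21 transcripts, 5′ to 3′, and capitals in the IgG genes mark bases that differ from *Ighg2b* at the same position.
*Igha* (chr12:113260177-113260236, minus strand): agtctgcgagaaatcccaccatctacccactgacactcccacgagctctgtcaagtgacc
*Ighm* (chr12:113422671-113422730, minus strand): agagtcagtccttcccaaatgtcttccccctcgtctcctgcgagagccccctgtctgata
*Ighg2b* (chr12:113307874-113307933, minus strand): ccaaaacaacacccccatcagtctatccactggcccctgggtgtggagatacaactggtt
*Ighg2c* (chr12:113288873-113288932, minus strand): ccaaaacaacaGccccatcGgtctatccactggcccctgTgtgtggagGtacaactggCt
*Ighg1* (chr12:113330464-113330523, minus strand): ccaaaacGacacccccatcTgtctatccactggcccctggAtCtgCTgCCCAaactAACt
*Ighg3* (chr12:113361173-113361232, minus strand): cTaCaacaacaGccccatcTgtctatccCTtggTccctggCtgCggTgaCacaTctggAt
*Igkc* (chr6:70726435-70726494, plus strand): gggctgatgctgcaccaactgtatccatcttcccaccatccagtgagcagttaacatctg
The IgG genes were alike. Over these 60 bases *Ighg2c* differed from *Ighg2b* at 5 positions, and *Ighg1* and *Ighg3* at 13 each. Over the whole first constant exon the IgG genes were 78.4 to 88.3% identical to each other, whereas *Igha* was 49.5 to 55.6% identical to the other 7 heavy chain genes. Of 28 pairs of heavy chain genes, 4 shared an identical stretch of 50 bases in their transcripts, all of them pairs of IgG genes. *Ighg2b* and *Ighg2c* shared the most, with 70 of the 1276 such stretches of *Ighg2c* (5.49%), and no pair with *Igha* shared any. How reads from such stretches were assigned is not given in the sources used here, so counts of single IgG subclasses are uncertain to that extent. *Igkc* and *Jchain* were not compared in this way.

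*Igha* alone held 26.92 to 37.41% of all counts in a library, and the 10 genes together held 42.27 to 57.07% of 14471018 to 22785835 counts. Levels below are counts per 1000000 counts (CPM), scaled by edgeR's TMM factors, which ranged from 0.722 to 1.15. The library with the lowest factor, control ZT12 replicate 2, was also that with the largest share of counts on the 10 genes, and it stood apart in several results below. It had the highest level of all 21 mice for *Igha*, *Igkc* and *Jchain*. In a bulk sample of sorted cells, more cells making a transcript and more transcript per cell cannot be told apart. The summed level of 10 PC markers, 5600 to 7553 CPM, was far above that of 10 markers of other B cells, 19.3 to 47.95 CPM, and of 8 T cell markers, 10.8 to 28.5 CPM. *Cd79a* was at 386 to 586 CPM in control mice and 163 to 276 CPM in knockout mice, without overlap. *Arntl* was at 6.83 to 8.36 CPM in controls and 4.08 to 6.47 CPM in knockout mice at ZT0, and at 4.00 to 5.56 and 3.11 to 4.93 CPM at ZT12, where the genotypes overlapped. These counts cover the whole *Arntl* gene, including exons outside the floxed part.

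The order of levels along the heavy chain locus was not the order of the genes. Per kb of the gene length that the file gives, which allows genes of different length to be compared, the mean level over the 21 mice was 114110 CPM per kb for *Igha*, 194 for *Ighg2b*, 142 for *Ighm*, 21.1 for *Ighg2c*, 16.7 for *Ighg3*, 15.0 for *Ighg1*, 2.91 for *Ighe* and 0.210 for *Ighd*. In counts, *Ighg2b* and *Ighm* changed places between mice, as did *Ighg2c* and *Ighg3*. *Igkc* was at 210380 CPM per kb and *Jchain* at 19399 CPM per kb. *Ighd*, the constant gene of the IgD that naive B cells carry beside IgM, had 0 to 35 counts in a library. It had none in control ZT12 replicates 1 and 2, which allows a level of up to 0.137 and 0.132 CPM of all counts (3 counts, counting error only), so no change of *Ighd* could be read at this depth.

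**Figure D1:**
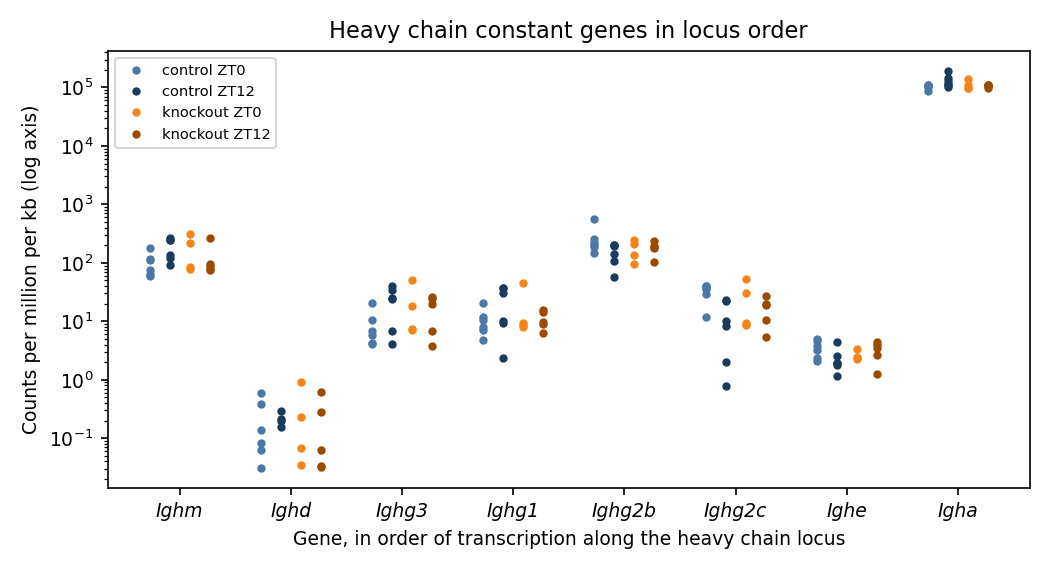
Level of each heavy chain constant gene in each mouse (points), in CPM per kb on a log axis, with genes in the order of transcription along the locus and the 4 groups side by side in each column. *Igha*, the last gene, averages 114110 CPM per kb and the next highest, *Ighg2b*, 194; the 2 libraries with no *Ighd* count are not drawn.

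IgA made up nearly all heavy chain constant counts in every mouse. The share of *Igha* among the counts of the 8 genes was 99.35 to 99.78% in control mice at ZT0 (median 99.68%) and 99.69 to 99.82% at ZT12 (median 99.75%). In knockout mice it was 99.54, 99.72, 99.80 and 99.65% at ZT0 and 99.72, 99.69, 99.68, 99.77 and 99.72% at ZT12. The lowest value belonged to control ZT0 replicate 5, where the 95% Wilson interval was 99.345 to 99.360%, so that counting error was far below the differences between mice. The group means were 99.641% ± 0.148 (SD, n = 6), 99.744% ± 0.0485 (n = 6), 99.679% ± 0.110 (n = 4) and 99.718% ± 0.0324 (n = 5) in the order control ZT0, control ZT12, knockout ZT0 and knockout ZT12. All groups overlapped. From ZT0 to ZT12 the share differed by 0.103 percentage points in control mice (p = 0.0887, exact permutation; all such tests were two-sided) and by 0.0382 points in knockout mice (p = 0.532, exact). Without control ZT0 replicate 5 the difference in control mice was 0.0452 points. The difference of these differences was -0.0646 points (p = 0.526, exact permutation of genotypes within each time), and -0.00697 without the same mouse. Knockout mice differed from controls by 0.0386 points at ZT0 (p = 0.71, exact) and by -0.0260 points at ZT12 (p = 0.335, exact). In all, 55 such tests of shares and ratios were made, 7 had a p under 0.05 before correction and 0 after Benjamini-Hochberg correction, where the smallest adjusted p was 0.298. The smallest p that the exact tests could give was 0.00216 in control mice, 0.0159 in knockout mice, 0.00952 between genotypes at ZT0 and 0.00433 at ZT12. All 55 adjusted values are over this family.

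The counts left after IgA were mostly IgG and IgM. IgG genes held 40.5 to 87.8% of the non-IgA heavy chain counts, with a mean of 69.4% over the 21 mice, and *Ighm* held 12.0 to 58.9%, with a mean of 30.0%. IgE held at most 0.932% and IgD at most 0.193%. *Ighg2b*, whose subclass is made in mice with IgA in responses that involve TGF-beta, was the largest non-IgA gene in 15 mice and *Ighm* in the other 6. Those 6 were 0 of 6 control mice at ZT0, 3 of 6 at ZT12, 2 of 4 knockout mice at ZT0 and 1 of 5 at ZT12. *Ighg2c* was above *Ighg3* in counts in 5 of 6 control mice at ZT0, 1 of 6 at ZT12, 2 of 4 knockout mice at ZT0 and 2 of 5 at ZT12. Small shares are given below in parts per 1000000 (ppm) of the counts on the 8 heavy chain constant genes.

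**Figure D2:**
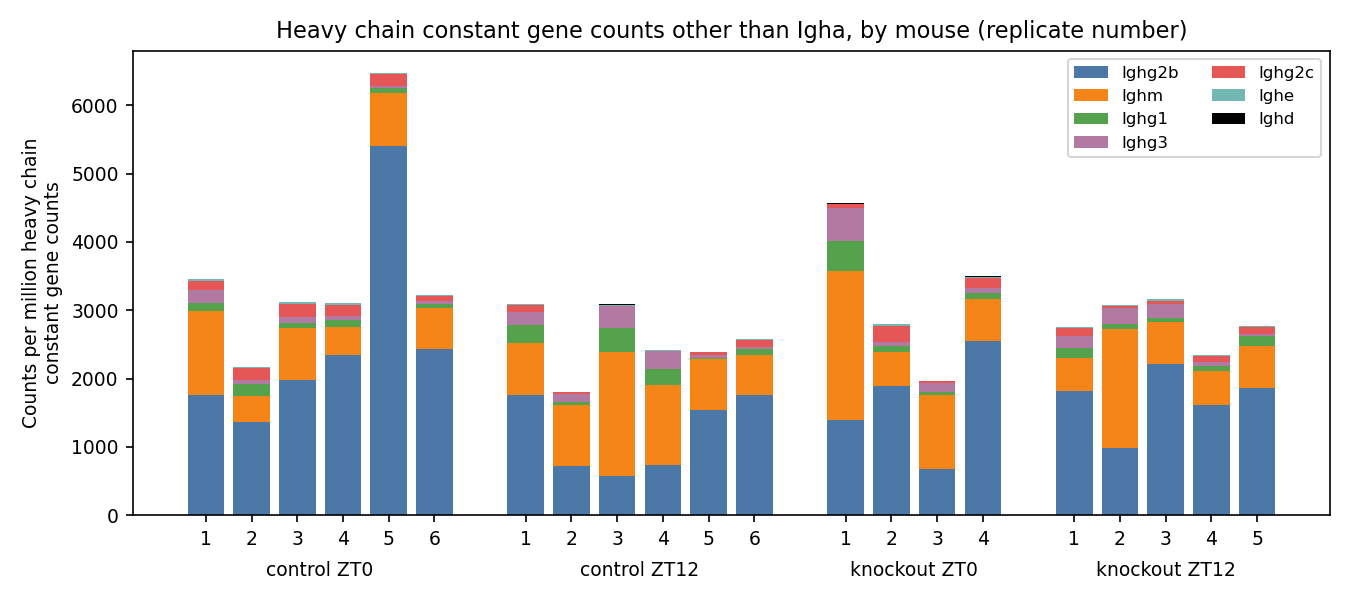
Stacked bars give, for each mouse, the counts of the 7 heavy chain genes other than *Igha*, in ppm of all heavy chain constant counts; replicate numbers stand under the bars and the 4 groups are set apart. Control ZT0 replicate 5 is the tallest bar, with *Ighg2b* at 5404 ppm, and knockout ZT0 replicate 1 has the most *Ighm*, at 2179 ppm.

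In control mice the *Ighg2b*, *Ighg2c* and *Ighe* shares had lower means at ZT12 than at ZT0, with a p under 0.05 before correction and not after it. *Ighg2b* made up 1363 to 5404 ppm at ZT0 (median 2169) and 567.6 to 1766 at ZT12 (median 1135) in control mice. The knockout mice had 1398, 1885, 677.0 and 2545 at ZT0 and 1813, 982.2, 2217, 1608 and 1859 at ZT12. Control mice overlapped only between the lowest ZT0 mice and the highest ZT12 mice, and knockout mice at both times lay across the same range. The difference in control mice was -0.137 percentage points (p = 0.0195 by exact permutation, adjusted p = 0.298), and it shrank to -0.0799 points without control ZT0 replicate 5. In knockout mice it was 0.00696 points (p = 0.865, exact), and the 2 changes differed by 0.144 points (p = 0.0849, exact permutation test).
*Ighg2c* encodes the IgG2a/c subclass that C57BL/6 mice carry as IgG2c. Its share was 67.8 to 192.1 ppm at ZT0 (median 169) and 2.66 to 103 ppm at ZT12 (median 29.3) in control mice. Among knockout mice the values were 46.95, 236, 30.7 and 155 ppm at ZT0 and 123, 25.2, 47.1, 87.3 and 95.5 ppm at ZT12. Of the control mice at ZT0, only replicate 6 was within the ZT12 range, and knockout mice spread across both. The difference in control mice was -0.0108 percentage points (p = 0.00649 by exact permutation, adjusted p = 0.298). In knockout mice it was -0.00416 points (p = 0.429, exact), and the 2 changes were not shown to differ (0.00660 points, p = 0.203, exact permutation test).
*Ighe*, the IgE gene and the rarest class after IgD, had 25 to 127 counts a library. Its share was 19.9 ppm ± 5.85 (SD, n = 6) at ZT0 and 10.7 ± 5.06 (n = 6) at ZT12 in control mice, and 14.1 ± 3.34 (n = 4) and 17.5 ± 6.81 (n = 5) in knockout mice. The difference in control mice was -0.000917 percentage points (p = 0.0216 by exact permutation, adjusted p = 0.298), in knockout mice 0.000342 points (p = 0.397, exact), and between the 2 changes 0.00126 points (p = 0.0170, adjusted p = 0.298, exact permutation test). None of these held after correction.
For *Ighm*, the share was 378 to 1228 ppm at ZT0 (median 675) and 577 to 1818 ppm at ZT12 (median 820) in control mice. Knockout mice were at 2179, 508, 1078 and 619 ppm at ZT0 and 494, 1741, 608, 497 and 625 ppm at ZT12. The highest mouse of each group was at 1228, 1818, 2179 and 1741 ppm in the order above, and the groups overlapped. The difference was 0.0301 points in control mice (p = 0.216 by exact permutation), -0.0303 points in knockout mice (p = 0.484, exact) and -0.0604 points between the changes (p = 0.192, exact permutation test).

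**Figure D3:**
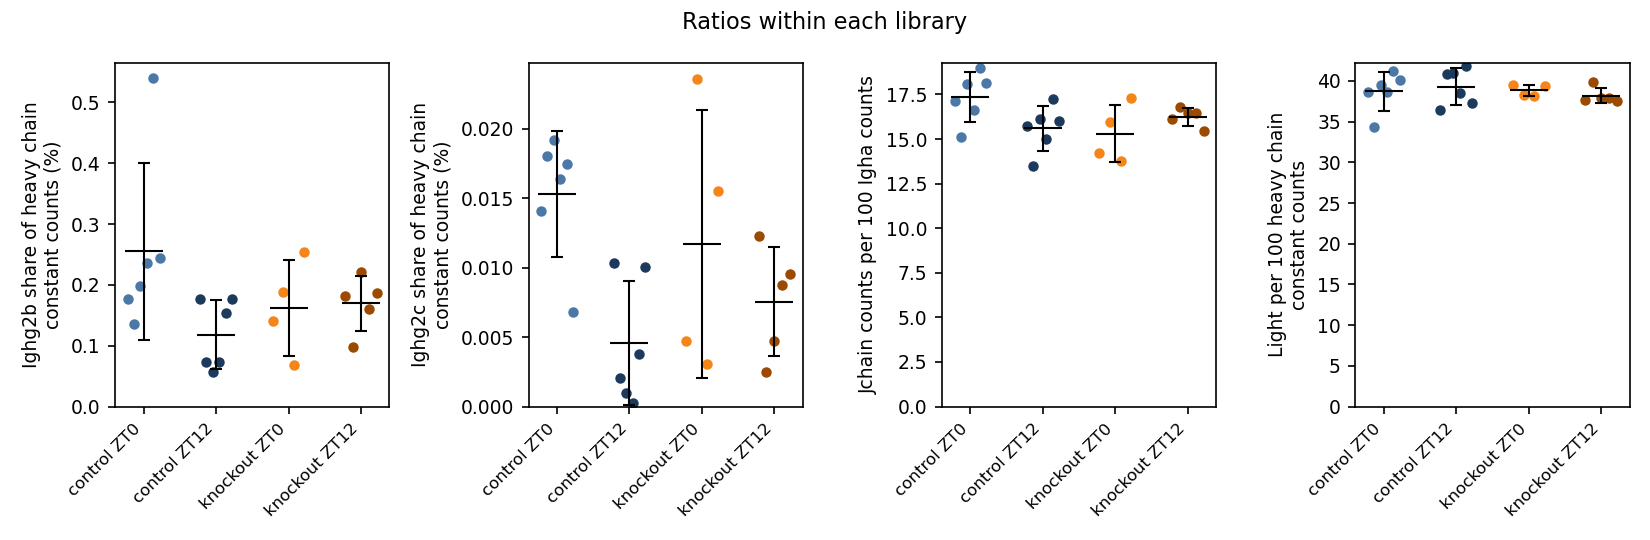
Points are mice, with the mean (bar) and SD (whisker) of each group, for the *Ighg2b* and *Ighg2c* shares of heavy chain constant counts in percent, *Jchain* counts per 100 *Igha* counts, and light per 100 heavy chain constant counts, all on axes from 0. Control mice at ZT0 have the highest mean for *Ighg2b*, *Ighg2c* and *Jchain*, and the groups overlap in every panel.

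J chain was read against the IgA heavy chain, which it joins into dimers. There were 15.1 to 19.0 *Jchain* counts per 100 *Igha* counts in control mice at ZT0 (median 17.6) and 13.5 to 17.2 at ZT12 (median 15.9). In knockout mice there were 14.2, 16.0, 13.8 and 17.3 at ZT0 and 16.1, 16.8, 16.4, 16.5 and 15.4 at ZT12. Control mice were mostly higher at ZT0, with overlap, and knockout mice showed no such order. The difference in control mice was -1.75 counts per 100 (p = 0.0498 by exact permutation, adjusted p = 0.391), and in knockout mice 0.949 (p = 0.262, exact). The 2 changes differed by 2.70 counts per 100 (exact permutation test, p = 0.0317, adjusted p = 0.349). Knockout mice were at -2.05 counts per 100 against controls at ZT0 (p = 0.0714, exact) and at 0.654 at ZT12 (p = 0.338, exact). None of the 5 held after correction.
Kappa was the main light chain, as is usual in mice. *Igkc* made up 94.1 to 96.3% of the counts of *Igkc* and the lambda genes *Iglc1*, *Iglc2* and *Iglc3* in control mice at ZT0 (median 95.6%) and 90.8 to 97.1% at ZT12 (median 95.3%). The knockout values were 95.1, 92.7, 90.4 and 94.3% at ZT0 and 93.8, 93.6, 95.1, 94.6 and 93.6% at ZT12. The lowest values were 90.4% in knockout ZT0 replicate 3 and 90.8% in control ZT12 replicate 4. The next lowest mice of their groups were at 92.7 and 93.8%. Knockout mice were at -2.21 percentage points against controls at ZT0 (p = 0.0381 by exact permutation, adjusted p = 0.349) and at -0.650 points at ZT12 (p = 0.576, exact). Without knockout ZT0 replicate 3 the difference at ZT0 was -1.30 points. The time of day difference was -0.565 points in control mice (p = 0.639, exact) and 1.00 points in knockout mice (p = 0.365, exact), and these differed by 1.56 points (p = 0.333, exact permutation test). Without knockout ZT0 replicate 3 the difference in knockout mice was 0.0891 points and that between the changes 0.654 points.
The ratio of light to heavy chain counts varied little. There were 38.7 ± 2.38 light per 100 heavy chain constant counts at ZT0 (SD, n = 6) and 39.3 ± 2.23 at ZT12 (n = 6) in control mice, and 38.9 ± 0.705 (n = 4) and 38.2 ± 0.959 (n = 5) in knockout mice. The time of day difference was 0.597 per 100 in control mice (p = 0.675 by exact permutation) and -0.654 in knockout mice (p = 0.246, exact). These are counts and not molecules, since *Igkc* is shorter than the heavy chain genes.

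The comparison of ZT12 with ZT0 in control mice asked whether the antibody genes differ by time of day. *Igha*, which encodes the IgA heavy chain, was at 235060 to 294210 CPM at ZT0 (median 277930) and 272260 to 518000 CPM at ZT12 (median 324460). Each ZT12 mouse but replicate 3 was above all ZT0 mice, and replicates 2 and 4 were far above. *Igkc* was at 90490 to 108890 CPM at ZT0 (median 103250) and 104760 to 201590 CPM at ZT12 (median 122780), with replicates 2, 4 and 5 of ZT12 above all ZT0 mice. *Jchain* was at 42697 to 52890 CPM at ZT0 (median 48040) and 43962 to 69812 CPM at ZT12 (median 53000), and again replicates 2, 4 and 5 were above all ZT0 mice. The fitted log2 difference was 0.36 for *Igha* (standard error 0.12, edgeR adjusted p = 0.120), 0.38 for *Igkc* (standard error 0.12, adjusted p = 0.104) and 0.19 for *Jchain* (standard error 0.10, adjusted p = 0.308). Scaled by library size alone, the values were 0.12, 0.13 and -0.041, so that the direction of *Jchain* turned. This scaling lowered the median over all genes by 0.205 in the same comparison. Without control ZT12 replicate 2, *Igha* and *Igkc* were each at 0.22 and *Jchain* at 0.11. Across all genes 350 were called (1.73% of those tested, adjusted p under 0.05), but none of the 10 antibody genes was. At an unadjusted p under 0.05 there were 4 of the 10 (*Igha*, *Igkc*, *Ighg2b* and *Ighg2c*) against 18.1% of all genes. DESeq2 called 2, *Igkc* (adjusted p = 0.0326) and *Igha* (adjusted p = 0.0417), and 1052 of the 12381 genes it tested (8.5%), so the call of these genes differed between the tools.
Of the other heavy chain genes in control mice, 3 were higher and 4 lower at ZT12 in the fit, none called. *Ighm* was at 111.5 to 342 CPM at ZT0 (median 175) and 171 to 497 CPM at ZT12 (median 360), a log2 difference of 0.86 (standard error 0.43, adjusted p = 0.300, edgeR). Its ZT12 mice fell in a high and a low set, replicates 2, 3 and 4 being at 458 to 497 CPM and the others at 171 to 262 CPM. *Ighg3* (log2 difference 1.37, standard error 0.66, adjusted p = 0.290) and *Ighg1* (1.00, standard error 0.59, adjusted p = 0.392), the IgG genes that stand just after *Ighd* in the locus, had the same sign. *Ighg3* was at 10.2 to 51.7 CPM at ZT0 and 10.3 to 100 CPM at ZT12, and *Ighg1* was at 12.7 to 53.6 and 6.03 to 96.5 CPM. Their ranges at ZT12 held those at ZT0 nearly whole. *Ighg2b* was at 402 to 1515 CPM at ZT0 (median 563) and 155 to 537 CPM at ZT12 (median 450), a log2 difference of -0.81 (standard error 0.35, adjusted p = 0.242). It was -0.43 without control ZT0 replicate 5. *Ighg2c*, further along the locus, was at 16.0 to 53.3 CPM at ZT0 (median 48.5) and 1.04 to 31.0 CPM at ZT12 (median 12.0), a log2 difference of -1.53 (standard error 0.64, adjusted p = 0.222). Only replicate 6 of ZT0 lay within the ZT12 range. *Ighe* was at 3.28 to 7.84 and 1.82 to 7.05 CPM (-0.61, standard error 0.29, adjusted p = 0.277), and *Ighd* gave -0.61 with a standard error of 0.94. The median log2 difference of the 10 genes was 0.28 beside 0.0063 over all genes tested, and the median of the sizes was 0.71 beside 0.32.

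In the same comparison, the summed level of gut epithelium markers had a higher median at ZT12, and the 2 times overlapped. The list held 11 markers, of which 10 passed the filter. Their summed level was 55.5 to 194.4 CPM at ZT0 (median 68.8) and 70.2 to 767 CPM at ZT12 (median 122) in control mice, highest in ZT12 replicate 5. For knockout mice it was 68.2 to 84.8 CPM and 64.8 to 449 CPM. None of the 10 was called in control mice, where 1.73% of all genes were. Before adjustment 5 had a p under 0.05 there, as did 18.1% of all genes. The median log2 difference of the 10 by time was 2.66 in control mice and 2.34 in knockout mice. Over all genes these medians were 0.0063 and 0.0055. *Fabp1*, the fatty acid binding protein of enterocytes, was at 0 counts in 7 libraries and at most 13.7 CPM, and *Epcam* was at 47.8 to 129.9 CPM. The part of these markers in the differences above was not tested. The control mice with the most *Igha*, ZT12 replicates 2, 4 and 5, had 114, 129.4 and 767 CPM of the epithelial markers. Replicate 2 had the lowest sums of all mice for the markers of other B cells, T cells and myeloid cells, at 19.3, 10.8 and 12.5 CPM. Knockout ZT0 replicate 3, highest of the knockout mice for *Igha*, had 25.5, 25.5 and 17.7 CPM of these and 84.8 CPM of the epithelial markers. How such sums relate to *Igha* was not tested.

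**Figure D4:**
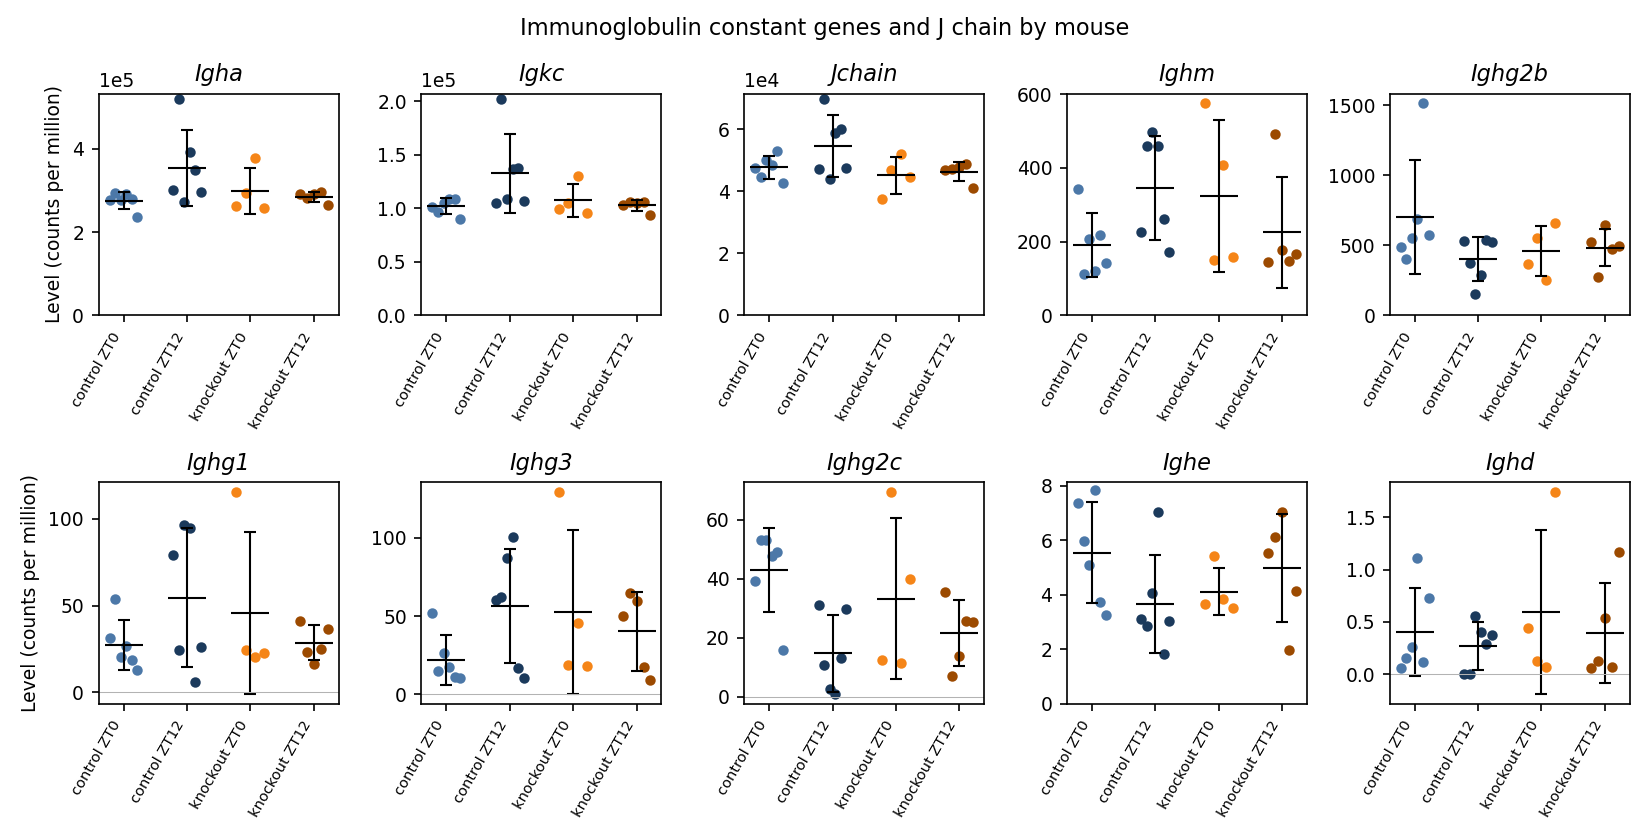
Level of each of the 10 genes in CPM (TMM-scaled) in every mouse (points) with the mean (bar) and SD (whisker) of the 4 groups; each panel has its own axis. Control ZT12 replicate 2 is the highest point for *Igha* (518000), *Igkc* (201590) and *Jchain* (69812), and the groups overlap in all panels.

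In knockout mice the same comparison gave small differences. *Igha* was at 263290, 293770, 376800 and 256990 CPM at ZT0 and at 290020, 281800, 290220, 295210 and 265660 CPM at ZT12. Apart from replicate 3 of ZT0, all 8 were between 256990 and 295210 CPM. *Igkc* was at 99341, 104720, 130220 and 95876 CPM at ZT0 and at 102630, 105490, 105050, 106290 and 93677 CPM at ZT12, with the same ZT0 mouse the highest. *Jchain* was at 37481, 46888, 51821 and 44409 CPM at ZT0 and at 46820, 47289, 47699, 48674 and 41006 CPM at ZT12. The log2 difference was -0.065 for *Igha* (95% interval -0.34 to 0.21, adjusted p = 0.939, edgeR), -0.067 for *Igkc* (-0.34 to 0.21, adjusted p = 0.935) and 0.036 for *Jchain* (-0.19 to 0.26, adjusted p = 0.961). In control mice the 95% intervals were 0.13 to 0.60 for *Igha*, 0.14 to 0.62 for *Igkc* and -0.0027 to 0.39 for *Jchain*. Each overlapped the interval of the knockout mice, and the test of the difference follows below. All these intervals take the standard error with a normal approximation, so they can be narrower than the edgeR test would give. *Ighm* was at 576, 150, 407 and 160 CPM at ZT0 and at 144, 492, 177, 147 and 166 CPM at ZT12. Replicates 1 and 3 of ZT0 and replicate 2 of ZT12 stood above the others by a wide margin. Its log2 difference was -0.52 (standard error 0.50, adjusted p = 0.820), and -0.092 without knockout ZT0 replicate 1. The differences of *Ighg1*, *Ighg2c* and *Ighg3* were -0.68, -0.63 and -0.39. *Ighg2b* and *Ighe* gave 0.077 and 0.27. No gene at all was called in knockout mice (0% of those tested), and DESeq2 called 47 genes (0.319% of those it tested) and none of the 10. At an unadjusted p under 0.05 there were 0 of the 10 against 8.01% of all genes.

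The interaction asked whether the time of day difference itself differed between genotypes. It was -0.43 for *Igha* (standard error 0.18, edgeR adjusted p = 0.444), -0.45 for *Igkc* (standard error 0.18, adjusted p = 0.442) and -1.38 for *Ighm* (standard error 0.65, adjusted p = 0.462). These were the 3 of 10 genes with an unadjusted p under 0.05, against 10.8% of all genes. The interaction of *Jchain* was -0.16 (standard error 0.15, adjusted p = 0.725), and 0.059 when scaled by library size alone, a setting that raised the median over all genes by 0.178. *Ighg1* (-1.68), *Ighg3* (-1.76), *Ighg2b* (0.88), *Ighg2c* (0.90) and *Ighe* (0.88) had adjusted p from 0.476 to 0.760. Without knockout ZT0 replicate 1, *Ighm* was at -0.96, *Ighg1* at -0.66 and *Ighg3* at -0.81, and without control ZT0 replicate 5, *Ighg2b* was at 0.50. Without control ZT12 replicate 2, *Igha* and *Igkc* were at -0.30 and -0.30. No gene was called in the interaction (0% of those tested), and DESeq2 called 4 genes (0.0279% of those it tested) and none of the 10, so these data do not show that the genotypes differ in the time of day difference of any antibody gene.

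The genotypes were then set against each other at one time of day. At ZT0 *Igha* was 297710 ± 55117 CPM in knockout mice (SD, n = 4) and 275540 ± 21265 CPM in control mice (n = 6). The log2 differences at ZT0 were 0.11 for *Igha* (standard error 0.13), 0.078 for *Igkc* (0.13) and -0.079 for *Jchain* (0.11). Those of the rarer genes were larger with wider errors, from -0.62 for *Ighg2b* (standard error 0.40) to 1.27 for *Ighg3* (0.73), and knockout ZT0 replicate 1, at 129 CPM of *Ighg3* and 115 CPM of *Ighg1*, was the highest mouse for both. Without it *Ighg3* was at 0.32, and without control ZT0 replicate 5 *Ighg2b* was at -0.24. Of all genes 2 were called at ZT0 (0.00987%), none of the 10, and the smallest adjusted p of the 10 was 0.926. At an unadjusted p under 0.05 there were 0 of the 10 against 4.90% of all genes.
At ZT12 all 3 of the abundant genes were lower in knockout mice in the fit. *Igha* was 284580 ± 11619 CPM in knockout mice (SD, n = 5) and 354350 ± 90837 CPM in control mice (n = 6), and *Igkc* was 102630 ± 5185 and 132650 ± 36920 CPM. Each control group was spread far more than the knockout group, and the groups overlapped. The log2 difference was -0.32 for *Igha* (standard error 0.13), -0.37 for *Igkc* (standard error 0.13) and -0.24 for *Jchain* (standard error 0.10), each with an edgeR adjusted p of 0.562. These 3 of the 10 had an unadjusted p under 0.05, against 8.83% of all genes. Scaled by library size alone they were -0.15, -0.20 and -0.079, with the median over all genes raised by 0.128, and without control ZT12 replicate 2 they were -0.18, -0.22 and -0.16. *Ighm* was at -0.62 (standard error 0.45), *Ighg1* at -0.93 (0.62), *Ighg3* at -0.48 (0.68), *Ighg2b* at 0.27 (0.37), *Ighg2c* at 0.53 (0.68) and *Ighe* at 0.45 (0.31). Of all genes 3 were called (0.0148%), none of the 10. DESeq2 called 5 genes at ZT0 (0.0247% of those it tested) and 8 at ZT12 (0.0574%), again none of the 10.

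**Figure D5:**
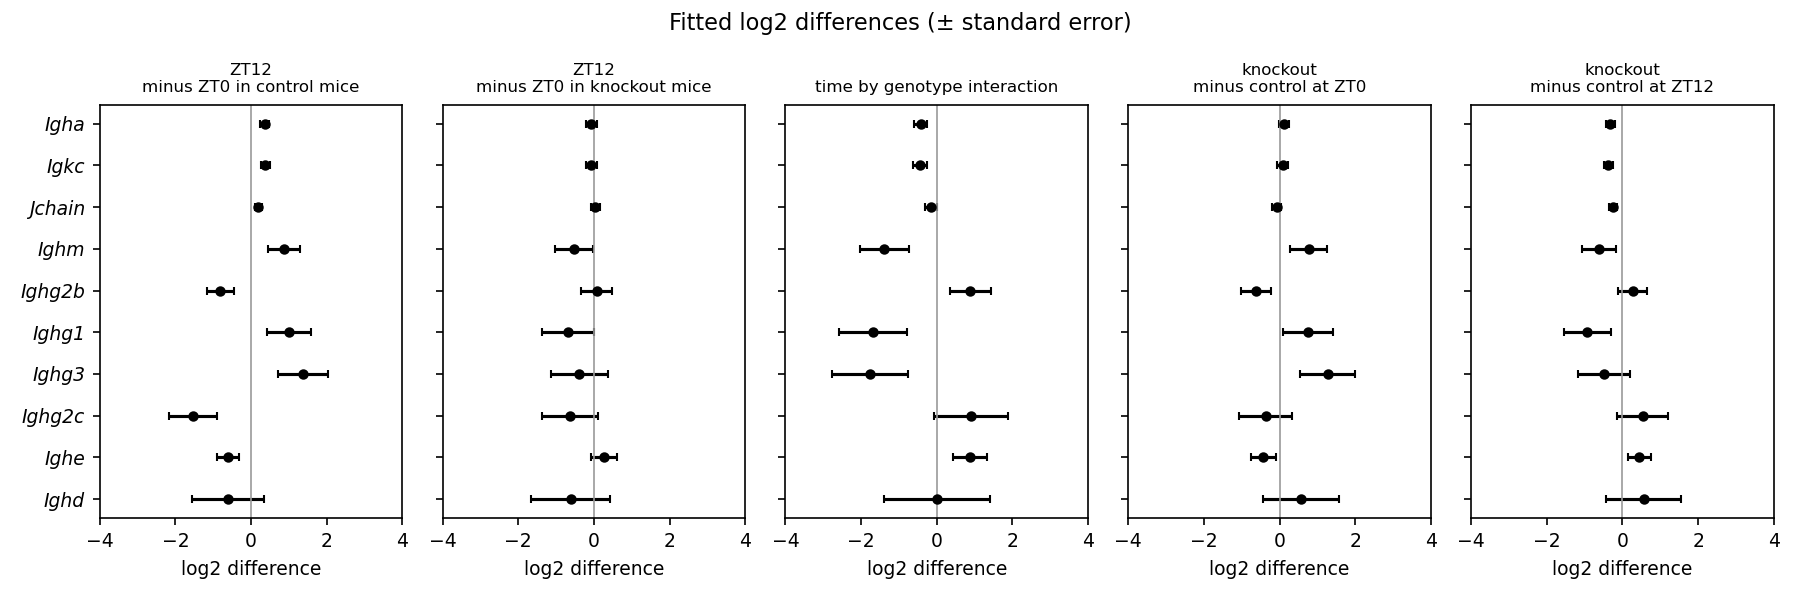
Fitted log2 differences with standard errors (whiskers) of the 10 genes in the 5 comparisons, from edgeR; the vertical line marks no difference. The abundant genes *Igha*, *Igkc* and *Jchain* have the narrowest errors and lie within 0.45 of 0 in every panel, and no gene passes the adjusted threshold in any.

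Genes that act on the antibody loci and on antibody assembly were read in the same fit. The class switching list held 24 genes, such as the DNA end-binding subunit *Xrcc6* and the TGF-beta receptor *Tgfbr1*. Of these, 0 of 24 were called by edgeR in any of the 5 comparisons, where 0 to 1.73% of all genes were called. In control mice by time of day 6 of 24 had a p under 0.05 before adjustment, against 18.1% of all genes. Their median log2 difference there was -0.082 beside 0.0063 over all genes. *Xrcc6* had the smallest p, with a log2 difference of 0.30 (standard error 0.09, adjusted p = 0.0950, edgeR), and *Tgfbr1* came next with -0.32 (standard error 0.13, adjusted p = 0.180). The list of antibody transcription, folding and assembly held 21 genes that passed the filter of 23. Of these, 0 were called in any comparison, beside the same 0 to 1.73% of all genes. By time of day in control mice 8 of 21 had a p under 0.05 before adjustment, against the same 18.1% of all genes. *Pou2f1*, an octamer-binding factor, was at -0.56 (standard error 0.16, adjusted p = 0.0845) and *Prdm1*, which drives the PC programme, at -0.30 (standard error 0.10, adjusted p = 0.126). The median of this list was 0.039. The summed level of the list was 17250 to 23780 CPM and that of the class switching list 340.0 to 558.6 CPM. The marker lists held 10 PC markers, 10 markers of other B cells, 8 T cell, 8 myeloid and 6 proliferation markers. None was called by edgeR in any comparison, again beside 0 to 1.73% of all genes. In control mice by time of day 3, 2, 1, 0 and 1 of them had a p under 0.05 before adjustment, again beside 18.1% of all genes. In that comparison, the smallest p of these lists belonged to *Prdm1* (above) and *Xbp1* (log2 difference 0.28, adjusted p = 0.143), to *Ebf1* (-0.95, adjusted p = 0.118) and *Cr2* (-0.93, adjusted p = 0.260), to *Cd8a* (-2.35, adjusted p = 0.210) and *Cd3g* (-1.26, adjusted p = 0.491), to *Fcgr1* (0.56, adjusted p = 0.615) and *Csf1r* (0.43, adjusted p = 0.673), and to *Birc5* (0.98, adjusted p = 0.265) and *Tyms* (0.47, adjusted p = 0.406).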

How the data were processed

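RNA of sort-purified IgA+ PCs was sequenced after poly-T bead selection, in 21 libraries. The authors deposited raw counts per gene, whole numbers with no normalization. The aligner, the counter and any use of strand are not given in the sources used here, and the submitters' processing notes name DESeq2 and DESeq. Coordinates of all 10 genes are those of the file and of GENCODE M21 (GRCm38).

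As in the study's methods, genes were kept from a total of 10 counts upward. Counts were scaled by TMM and fitted to 4 group means with robust quasi-likelihood in edgeR 4.0.16 (R 4.3.3), with Benjamini-Hochberg adjustment over 20256 genes and a threshold of 0.05. The study's own tool, DESeq2 1.42.0, was an alternative. Shares and ratios were computed from counts and tested by two-sided exact permutation (scipy 1.17.1), adjusted over 55 tests. Correlations used 100000 resamples and log2 (CPM + 0.01). Sequences were aligned with Biopython 1.88.

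The members, gene lists and tests were chosen with earlier results of these data known. All 10 members were named, and from each list those called or the 2 with the smallest p in control mice by time of day. On simulated counts with 200 genes changed by a log2 difference of 1 between ZT0 and ZT12 of control mice, edgeR recovered 138 (143 calls, 5 false, 19628 genes) and DESeq2 recovered 155 (177 calls, 22 false, 16577 genes). The changed genes were outside the immunoglobulin classes and above a minimum mean count, and simulated means followed library size alone. Recovery of changes in the 10 members was therefore not simulated. Libraries of a group differed beyond counting error in all 46 pairs (chi-square per gene 29.5 to 242). Depth was 14471018 to 22785835 counts, and Wilson intervals cover counting error only, since no molecular identifiers are described. Alternatives were other scalings, filters and tools, a threshold of 0.01, own groups only, the *Xist* level or replicate number in the model, other denominators, division by gene length, and each library left out in turn.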

Additional observations from a re-analysis of the deposited data

Results flagged for a closer look

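Among 84 sets of values, each a measure in a group of mice, 13 held 1 value far from the rest. Chance gives about 1 in 20 for independent normal values. These sets overlap, since the level and the share of a gene were counted apart, so the rates cannot be compared. Control ZT0 replicate 5 had 1515.1 CPM of *Ighg2b* where the other 5 mice had 401.8 to 688.0, which raised its *Ighg2b* share to 0.540% (the others 0.136 to 0.244%) and lowered its *Igha* share to 99.352% (the others 99.654 to 99.783%). Knockout ZT0 replicate 1 had 115.4 CPM of *Ighg1* (the others 20.3 to 24.5), a share of 0.0436% (the others 0.00539 to 0.00869%), and an *Ighg3* share of 0.0489% (the others 0.00628 to 0.0120%). Knockout ZT12 replicate 2 had 492.1 CPM of *Ighm* (the others 143.7 to 176.9), a share of 0.174% (the others 0.0494 to 0.0625%), and 39.88 light per 100 heavy chain constant counts (the others 37.58 to 37.97). Control ZT0 replicate 2 had 34.29 light per 100 heavy chain constant counts (the others 38.63 to 41.19). *Igha* was at 235060 CPM in control ZT0 replicate 6 (the others 276400 to 294210). *Igkc* was at 201590 CPM in control ZT12 replicate 2 (the others 104760 to 137270). *Jchain* was at 41006 CPM in knockout ZT12 replicate 5 (the others 46820 to 48674).

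The test of the time of day difference between genotypes gave an unadjusted p under 0.05 for 5 values, none of which passed adjustment. Of the 10 gene levels 3 were among these, against 10.8% of all genes. The others were shares or ratios, of which 7 of all 55 tests had a p under 0.05. The 5 values were the log2 levels of *Igha* (-0.43, adjusted p = 0.444 from edgeR), *Igkc* (-0.45, adjusted p = 0.442) and *Ighm* (-1.38, adjusted p = 0.462), the *Ighe* share (0.00126 percentage points, exact permutation adjusted p = 0.298) and *Jchain* per 100 *Igha* counts (2.70, exact permutation adjusted p = 0.349).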

How the results depend on the processing

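No antibody gene was called in control mice by time of day in the fit used here (1.73% of all genes). DESeq2 called 2, *Igha* and *Igkc* (8.5% of all genes). Leaving out each library gave 0 to 1 called antibody genes. *Igkc* was called without control ZT12 replicate 1 (adjusted p = 0.0355 from edgeR), where 944 of 20072 genes were called. It was also called without control ZT12 replicate 6 (adjusted p = 0.0447 from edgeR), where 687 of 20153 were. Both settings thus called more genes over all than the main fit. In the other 4 comparisons no setting called any of the 10, and the main fit called 0 to 0.0148% of all genes. Over all genes in control mice, 350 calls became 1052 with DESeq2, 38 with the 2 groups fitted alone, and 31 (without control ZT0 replicate 2) to 944 (without control ZT12 replicate 1) when a library was left out. Deviations of same-numbered mice from their group means had correlations of -0.276 to 0.413, over 0.1 in 8 of 28 pairs. Of 21 libraries, 6 matched their own number best. No rate was computed for differently numbered libraries, so shared handling of same-numbered mice was not tested. The main fit treated the mice as unpaired. The fit with a replicate block gave 183 calls in control mice and none of the 10 genes, and turned the log2 difference in knockout mice to -0.026 for *Ighg2b* and 0.11 for *Ighg3*.

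Library size alone turned *Jchain* to -0.041 in control mice and to 0.059 in the interaction. As shares of all counts, a different quantity, the sign turned for *Igha* in knockout mice by time (-1.54 points), for *Igkc* in control mice (1.04), in knockout mice (-0.605), in the interaction (-1.64) and between genotypes at ZT0 (0.120), and for *Jchain* between genotypes at ZT12 (-0.263).

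Leaving out single mice turned small differences. In knockout mice by time the log2 range was -0.14 to 0.069 for *Igha*, -0.93 to 0.34 for *Ighg1*, -0.12 to 0.29 for *Ighg2b*, -0.70 to 0.56 for *Ighg3*, -0.13 to 0.038 for *Igkc* and -0.049 to 0.11 for *Jchain*. The value farthest on the other side of 0 came without knockout ZT0 replicate 3 for *Igha*, *Igkc* and *Ighg2b* and without knockout ZT0 replicate 1 for *Ighg1*, *Ighg3* and *Jchain*. Between genotypes at ZT0 it was -0.022 to 0.18 for *Igha*, -0.28 to 1.07 for *Ighg1*, -0.027 to 0.14 for *Igkc* and -0.15 to 0.0019 for *Jchain*, the opposite sign coming without the same 2 mice. For shares it was -0.00703 to 0.0794 points for *Igha*, -0.0540 to 0.00577 for *Ighm* and -0.0247 to 0.0376 for *Ighg2b* in knockout mice by time, -0.0191 to 0.0839 for *Igha* between genotypes at ZT0, and in control mice by time -1.03 to 0.237 points for *Igkc* and -0.289 to 1.18 light per 100 heavy chain constant counts. The opposite sign came without knockout ZT0 replicate 1 (*Igha* and *Ighm*), knockout ZT0 replicate 3 (*Ighg2b*, also without replicate 1 and knockout ZT12 replicate 3), control ZT0 replicate 5 or knockout ZT0 replicate 3 (*Igha* at ZT0), control ZT12 replicate 4 (*Igkc*) and control ZT0 replicate 2 (light per heavy). Among 2212 values from alternatives, 2174 kept their direction and side of the threshold. No value passed the threshold in the main fit or tests, and most alternatives shared all libraries but 1. Keeping the side of the threshold was thus nearly given in advance. The count leaves out the *Ighd*, *Ighg1* and *Ighg3* shares and *Ighd* levels outside control mice by time. Genotype comparisons of the other rare shares and of light per heavy are also left out. Of 1573 values with a library left out that kept their direction, 124 moved by over 1.5 times. Depth limits *Ighd*, with 144 counts in all.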

Other observations

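The rarer classes varied more between mice than IgA did. Over the 21 mice the highest level was 1.86 times the lowest for *Jchain*, 2.20 times for *Igha* and 2.23 times for *Igkc*, beside 4.32 times for *Ighe*, 5.17 times for *Ighm*, 9.78 times for *Ighg2b*, 13.8 times for *Ighg3*, 19.1 times for *Ighg1* and 66.7 times for *Ighg2c*. Such a ratio rests on single libraries and is less certain at low counts. The lowest *Ighg2c* library, control ZT12 replicate 4, had 13 counts, and *Ighe* had 25 to 127 counts a library. Of 6 pairs of genes examined on log2 CPM, *Ighm* and *Ighg3*, the genes of IgM and IgG3, had a Pearson r of 0.760 and a Spearman rho of 0.718 (n = 21, permutation p = 0.00018 and 0.00035, adjusted 0.00036 and 0.0010). The r was 0.677 without the 2 mice farthest from the median of *Ighm*, and 0.729 after group means were removed. *Ighg2c* and *Ighg3* went opposite ways, with r of -0.608 and rho of -0.513 (permutation p = 0.0023 and 0.018, adjusted 0.0034 and 0.027), -0.472 without 2 mice and -0.543 within groups, though r was 0.311 in control mice at ZT0. *Ighg1* and *Ighg3* had r of 0.564 and rho of 0.423 (permutation p = 0.0075 and 0.056, adjusted 0.0090 and 0.067), 0.474 without 2 mice. *Ighm* and *Ighg1* had r of 0.334 and rho of 0.161 (permutation p = 0.14 and 0.48), 0.0464 without 2 mice. *Igha* had r of 0.959 with *Igkc* and 0.862 with *Jchain* (rho 0.705 and 0.706, permutation p of 1e-05 for r, the smallest they can give, and 0.00050 and 0.00048 for rho), 0.880 and 0.692 without 2 mice. Within control mice these r were 0.668 and 0.477 at ZT0 and 0.970 and 0.956 at ZT12. Genes of 1 library share its scaling factor, and its part in these values was not tested.

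Outside the antibody loci, the genes whose level over the 21 mice was most like that of a member, of 11394 compared, were *Lypla2* (Spearman rho 0.800), *Thap3* (0.800) and *B3gat3* (0.781) for *Igha*, *B3gat3* (0.849), *Uqcc2* (0.803) and *Smim20* (0.791) for *Jchain*, and *Naglu* (0.922), *Tdrd3* (0.834) and *Prmt7* (0.83) for *Ighm*. They are a description, with no test.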
